A study of Homo sapiens with 12 samples.

Results

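The genes described here encode subunits of activator protein 1 (AP-1), read in the human neuroblastoma line SH-SY5Y on 12 Affymetrix 3′ expression arrays. The 8 members are the Fos genes FOS, FOSB, FOSL1 and FOSL2, the Jun genes JUN, JUNB and JUND, and ATF3. They were chosen by name, with earlier results of these data known. Each gene was read from the probe set with the highest mean over the 12 arrays among those annotated to that symbol alone. They are 8 of 19775 genes with such a probe set and hold 20 probe sets, and 6 of them are among the 11774 genes above the filter on low values (a mean log2 signal of 3.78, the median of all probe sets). FOSB and FOSL1 lay below that filter. The groups were cells given oligomeric amyloid-β (Aβ, the peptide of Alzheimer plaques) with a 6 h incubation, 6 h controls, cells given fibrillar Aβ with a 24 h incubation, and 24 h controls, with 3 arrays in each. The labels name no dose and no vehicle, so the controls are known only by their hours. Preparation and hours changed together, so they cannot be told apart, and it is not stated whether the hours are those of the peptide or of the cells. Whether replicates came from separate cultures is not stated, so every p-value reflects the spread of these arrays alone, which may be technical.

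AP-1 is a dimer of basic leucine zipper (bZIP) proteins. Jun proteins pair with each other or with Fos proteins, Fos proteins need a Jun partner, and ATF3 is a stress-induced bZIP repressor or activator that can pair with JUN. FOS, FOSB and JUNB are immediate early genes, switched on within minutes by growth factors, calcium or depolarization through SRF with ETS partners and through CREB, while JUN is driven by the Jun N-terminal kinases and acts on its own promoter. In neurons these genes respond to activity, and JUN and ATF3 also to axon injury and loss of trophic support.

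The promoters of the 4 members that rose with fibrils are shown, because these are the genes that moved together. They are RefSeq sequences of build GRCh38.p14, 5′ to 3′ along the gene, from 250 bases before to 50 bases after the annotated start. FOS lies at chr14:75278578-75278877 on the plus strand, JUN at chr1:58783998-58784297 on the minus strand, JUND at chr19:18281573-18281872 on the minus strand, and ATF3 at chr1:212565157-212565456 on the plus strand. Capitals mark matches to TGACGT (the core of the cAMP response element, CRE), TGACNTCA (the full CRE and the related site known in the JUN promoter) or TGAGTCA (the classical AP-1 site), on either strand.
FOS: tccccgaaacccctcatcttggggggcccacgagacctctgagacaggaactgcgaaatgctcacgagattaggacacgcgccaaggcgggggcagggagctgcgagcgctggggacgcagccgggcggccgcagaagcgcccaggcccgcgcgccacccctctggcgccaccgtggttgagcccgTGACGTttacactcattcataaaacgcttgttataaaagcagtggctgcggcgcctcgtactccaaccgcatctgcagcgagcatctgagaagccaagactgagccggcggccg
JUN: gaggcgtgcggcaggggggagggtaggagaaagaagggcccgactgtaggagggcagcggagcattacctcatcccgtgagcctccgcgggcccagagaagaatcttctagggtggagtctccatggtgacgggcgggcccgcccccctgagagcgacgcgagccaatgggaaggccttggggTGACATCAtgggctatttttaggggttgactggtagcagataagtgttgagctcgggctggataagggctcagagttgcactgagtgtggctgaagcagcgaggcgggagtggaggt
JUND: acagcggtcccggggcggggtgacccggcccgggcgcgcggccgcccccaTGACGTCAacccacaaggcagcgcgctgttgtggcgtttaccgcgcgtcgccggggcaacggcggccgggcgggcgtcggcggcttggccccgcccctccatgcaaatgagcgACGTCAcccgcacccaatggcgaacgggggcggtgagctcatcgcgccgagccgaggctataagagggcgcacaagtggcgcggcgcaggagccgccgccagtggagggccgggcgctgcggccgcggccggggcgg
ATF3: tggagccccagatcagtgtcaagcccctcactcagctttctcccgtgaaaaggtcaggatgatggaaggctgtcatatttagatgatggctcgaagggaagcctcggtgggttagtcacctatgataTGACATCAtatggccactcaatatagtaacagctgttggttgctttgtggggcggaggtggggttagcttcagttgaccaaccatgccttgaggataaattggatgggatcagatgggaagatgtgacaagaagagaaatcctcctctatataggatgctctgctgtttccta
FOS holds TGACGT, with its first base at position -64 from the start. JUN holds TGACATCA at -67, and the same 8 letters stand at -123 in this window of ATF3. JUND holds the full element TGACGTCA at -200, which counts under both the first and the next pattern, and a further ACGTCA, the other strand of the core, at -87. Among 35116 promoter windows of this length, 7.98% hold the core, 7.72% TGACNTCA and 4.95% TGAGTCA. Of the 8 members, 7 matched this table with 8 windows in all, of which 4 hold the core (FOS, FOSB, FOSL2 and JUND), 3 TGACNTCA and 1, that of FOSL2, the AP-1 site. The other ATF3 window and that of JUNB hold none of these. A CArG box, the site of SRF, was in 0 of the 8 windows and in 1.29% of all. The windows reach only 250 bases before the start, so a site further upstream could not be found. The ATF3 windows follow annotated starts. Which start these cells used was not tested, so these windows may miss the promoter in use. A match is only a match of letters.

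The values are log2 MAS5 signals. Array medians ran from 3.89 to 4.12, and precision is limited by having 3 arrays a group. Of 13 noradrenergic neuroblastoma markers with a probe set, 11 were above the filter, among them PHOX2A, GATA3 and DBH, whereas TH, the tyrosine hydroxylase gene, averaged 0.73 and SLC18A2 averaged 2.85. Of the markers of other cells, 2 of 8 epithelial, 2 of 8 blood and endothelial, 1 of 6 glial and 9 of 11 fibroblast or mesenchymal genes were above it. The summed linear signal of the mesenchymal list was 9334 to 9906 in the fibrillar arrays and 9528 to 10696 in the 24 h controls. That of the epithelial list was 74.8 to 84.1 with fibrils and 99.6 to 105 in the 24 h controls, with KRT19 and CDH1 among its members below the filter. The part of these markers in the results below was not tested.

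**Figure D1:**
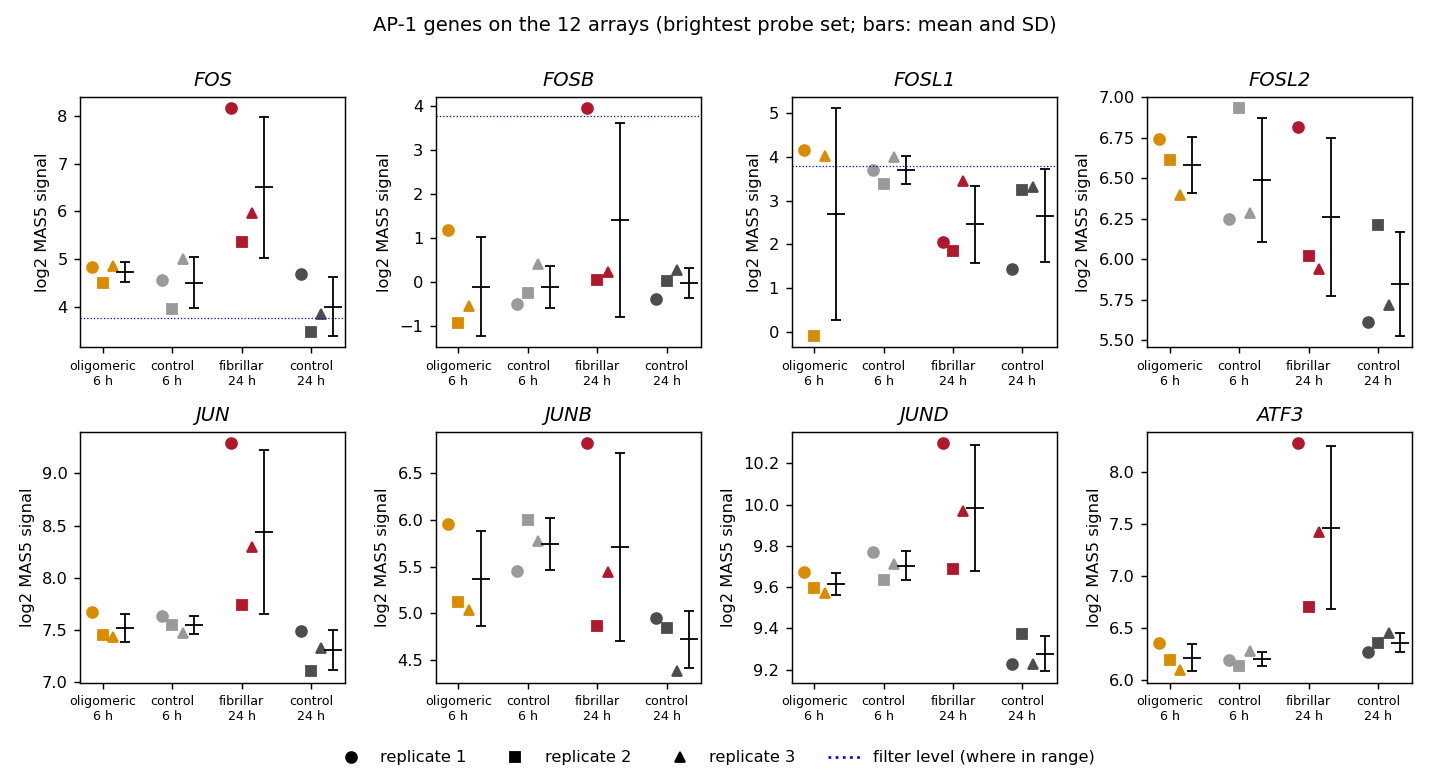
Log2 MAS5 signal of the 8 AP-1 genes (vertical axes, scaled per gene) on each array of the 4 groups (horizontal axes), with the mean and SD beside each group and the filter level dotted where it falls in range. FOS, JUN, JUND and ATF3 have all 3 fibrillar arrays above all 24 h controls, with fibrillar replicate 1 highest.

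With fibrillar Aβ at 24 h, FOS, JUN, JUND and ATF3 had higher levels than their controls. By limma these 4 of the 6 tested members rose and 0 fell at an adjusted p under 0.05, where 0.798% of all genes rose and 0.391% fell. The members were chosen with earlier results of these data known, so the shares set against all genes here are a description only. The same 4 genes had fibrillar values that did not overlap the control values, as 10.9% of all genes did in the upward direction. The median change of the 6 members was 1.05 on the log2 scale, against -0.00053 for all genes, and all 6 had the higher mean with fibrils, as did 49.9% of all genes.

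Among the Fos genes, FOS had log2 signals of 8.16, 5.36 and 5.98 in fibrillar replicates 1, 2 and 3, against 4.69, 3.49 and 3.87 in the 24 h controls. All 3 fibrillar arrays were above every control, and replicate 1 stood far above the other two. The change was 2.49 (SE 0.53, 95% interval 1.37 to 3.60, limma adjusted p = 0.0366). This is 5.60-fold as a ratio of the geometric means of the linear signals, as are the other fold values given here. Control 24 h replicate 2 of FOS, at 3.49, lay below the filter level, so the size of the FOS change is uncertain. Across the alternative settings, apart from leaving out single arrays, the FOS change ran from 1.76 to 2.57. FOSB, the close relative of FOS, was at 3.96, 0.05 and 0.22 in the fibrillar arrays and at -0.38, 0.03 and 0.28 in the 24 h controls. Only fibrillar replicate 1 reached the filter level, and the groups overlapped. FOSL1, or Fra-1, read 2.06, 1.85 and 3.45 with fibrils and 1.44, 3.24 and 3.30 in the controls, also with overlap. In a fit of all genes without the filter, the changes of FOSB and FOSL1 were 1.43 (SE 1.15, adjusted p = 0.754) and -0.21 (SE 0.99, adjusted p = 0.975). FOSL2, or Fra-2, had 6.82, 6.02 and 5.94 with fibrils, against 5.61, 6.21 and 5.72 in the controls. Its groups overlapped, and the change of 0.41 (95% interval -0.09 to 0.92, adjusted p = 0.476) did not pass.

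Among the Jun genes, JUN had 9.29, 7.74 and 8.29 in the fibrillar arrays, against 7.49, 7.10 and 7.33 in the 24 h controls. The groups did not overlap, and the change was 1.13 (SE 0.25, 95% interval 0.60 to 1.66, limma adjusted p = 0.0403), or 2.19-fold. JUND, the most steadily expressed Jun protein in many cells, read 10.3, 9.69 and 9.97 with fibrils and 9.23, 9.37 and 9.23 in the controls. It had the smallest change of the 4 and the smallest error, 0.71 (SE 0.11, 95% interval 0.47 to 0.94, limma adjusted p = 0.00804), or 1.63-fold. JUNB, an immediate early gene that can oppose JUN, was at 6.82, 4.86 and 5.44 with fibrils, against 4.95, 4.84 and 4.38 in the controls. Here 2 of 3 fibrillar arrays were above every control. The change of 0.99 (95% interval 0.17 to 1.80) had an unadjusted p of 0.0207 and did not pass (limma adjusted p = 0.248).

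ATF3 read 8.27, 6.70 and 7.42 in the fibrillar arrays, against 6.27, 6.35 and 6.46 in the 24 h controls. Its controls lay close together and all fibrillar arrays were above them, with a change of 1.10 (SE 0.26, 95% interval 0.56 to 1.65, limma adjusted p = 0.0474), or 2.15-fold.

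The fibrillar arrays differed widely among themselves, and in the same order for most members. Above the mean of the 24 h controls, FOS lay by 4.15, 1.35 and 1.96 in fibrillar replicates 1, 2 and 3, JUN by 1.98, 0.43 and 0.99, JUND by 1.02, 0.41 and 0.69, and ATF3 by 1.91, 0.34 and 1.06. Replicate 1 was highest in 7 of the 8 members, FOSL1 being the exception. Above the filter it was highest in 6 of 6 members and in 30.6% of all tested genes. The order with replicate 1 highest and replicate 2 lowest held in 6 of 8 members. Above the filter it held in 5 of 6 members and in 17.4% of all tested genes. The SD of FOS was 1.47 with fibrils and 0.61 in the 24 h controls, that of ATF3 0.79 and 0.09, and each SE uses a spread shared by the 4 groups.

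**Figure D2:**
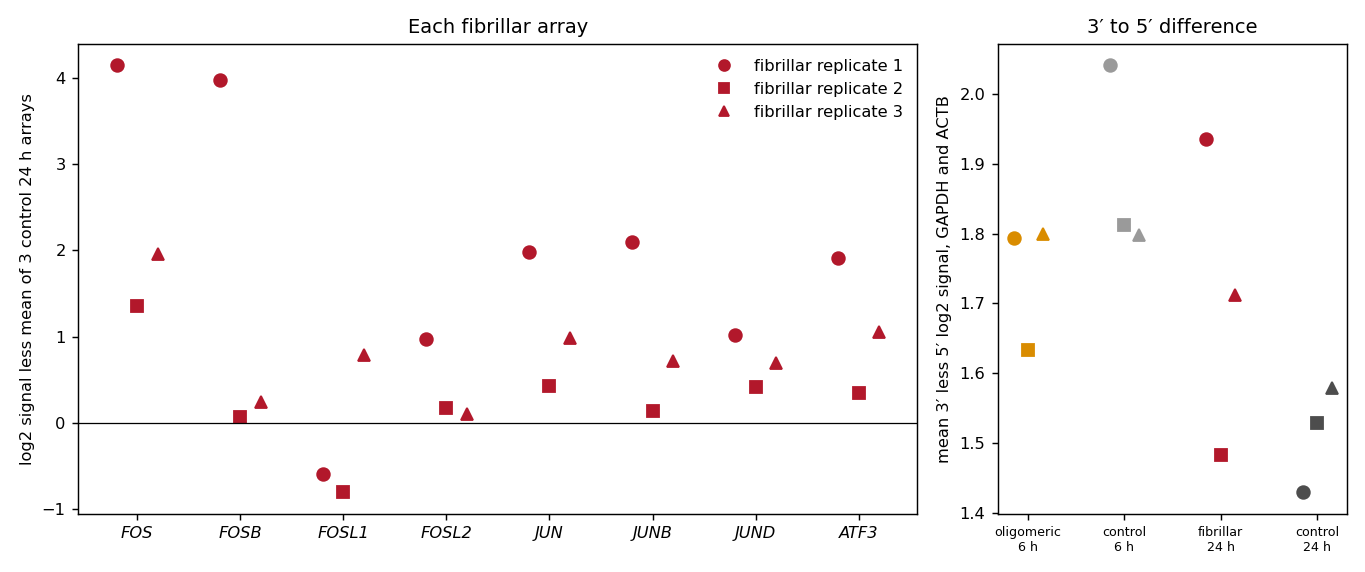
Left, log2 signal of each AP-1 gene on each fibrillar array less the mean of the 3 control arrays of 24 h. Right, the mean 3′ less 5′ log2 signal of GAPDH and ACTB on each array by group. Fibrillar replicate 1 is highest of its group in 7 of 8 genes and, at 1.94, in the 3′ to 5′ difference.

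The 3′ less 5′ signal of the GAPDH and ACTB control probe sets, a sign of RNA or labelling quality, moved with this order. Its mean was 1.94, 1.48 and 1.71 in fibrillar replicates 1, 2 and 3, against 1.43, 1.53 and 1.58 in the 24 h controls. The 6 h arrays had 1.63 to 1.80 with oligomers and 1.80 to 2.04 in the controls, so the 24 h controls lay below every 6 h array. JUND, JUNB and FOSL2 were also lower in all 24 h controls than in all 6 h controls, whereas FOS, JUN and ATF3 overlapped between them. With this measure as a covariate, the fibrillar change was 1.78 for FOS, 0.70 for JUN and 0.67 for ATF3, none of which passed (limma adjusted p of 0.170, 0.170 and 0.215). JUND still rose, by 0.52 (adjusted p = 0.0333).

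Single arrays decided most of these calls. Without fibrillar replicate 1 the changes were 1.66 for FOS (limma adjusted p = 0.0776), 0.71 for JUN (0.0492), 0.55 for JUND (0.00945) and 0.70 for ATF3 (0.109). All 4 were called without fibrillar replicate 2, JUND alone without fibrillar replicate 3 or without control 24 h replicate 2 or 3, and 0 of the 4 without control 24 h replicate 1, where JUND had an adjusted p of 0.0523. JUND was thus called in 5 of these 6 fits, JUN in 2 and FOS and ATF3 in 1 each.

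The 20 probe sets of the family did not all carry signal. Of the 10 above the filter, all 10 had the higher mean with fibrils, as did 46.3% of the 22123 probe sets above it, and in 6 the fibrillar arrays all lay above the controls, as in 8.99%. With each of the 22123 probe sets tested on its own, 3 of these 10 rose (limma), where 0.303% of all did. They were the probe sets of FOS and JUND and a JUN probe set other than the brightest (1.34, SE 0.27, adjusted p = 0.0399). The brightest JUN probe set carries the array maker's suffix for possible cross-hybridization and had an adjusted p of 0.0516 in this fit, and another differed by 0.53 (adjusted p = 0.397). For ATF3 the brightest probe set had an adjusted p of 0.0583 there. The next differed by 0.18 (SE 0.34, adjusted p = 0.869), with 4.84 ± 0.30 with fibrils and 4.67 ± 0.26 in the controls (SD, n = 3). For FOSL2 the next probe set had a change of 0.67 (adjusted p = 0.367). FOS, FOSB, FOSL1 and JUNB have 1 probe set each. JUND has 4, but only 1 of them was above the filter, so its call rests on that probe set. Below the filter, FOSL1 (-0.21) and 1 probe set each of FOSL2 (-0.86), JUN (-0.73) and JUND (-0.67) had the lower mean with fibrils. The rest of those below it had the higher mean. That JUN probe set read 5.52, 1.05 and 1.55 with fibrils, against 2.32, 4.17 and 3.81 in the 24 h controls.

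With oligomeric Aβ at 6 h no member passed the test. Limma called 0 of 6 members and 0% of all 11774 genes, 0 members had groups that did not overlap on the brightest probe set, against 7.36% of genes, and an unadjusted p under 0.05 was found for 0 of 6 members and 2.78% of genes. FOS had 4.84, 4.50 and 4.87 with oligomers, against 4.57, 3.96 and 5.01 in the 6 h controls, a difference of 0.22 (95% interval -0.89 to 1.34). The values overlapped fully. JUN had 7.67, 7.45 and 7.43 with oligomers, against 7.64, 7.54 and 7.47, a difference of -0.03 (95% interval -0.56 to 0.50). JUND had 9.67, 9.60 and 9.57, against 9.77, 9.63 and 9.71, a difference of -0.09 (95% interval -0.33 to 0.14). For both Jun genes the oligomeric and control arrays overlapped within a narrow band. ATF3 had 6.36, 6.19 and 6.10 with oligomers, against 6.20, 6.14 and 6.28, a difference of 0.01 (95% interval -0.53 to 0.55). FOSL2 (0.09) and JUNB (-0.37) also had overlapping groups on their brightest probe sets, and the adjusted p was 0.999987 for each of the 6 members. The next FOSL2 probe set went the other way, with 5.26 to 5.63 with oligomers and 5.70 to 5.95 in the controls, groups that did not overlap and a difference of -0.40 (adjusted p = 0.999987 over all probe sets). FOSL1 read 4.16, -0.09 and 4.03 with oligomers and 3.71, 3.38 and 4.004 in the controls, so its lower mean rests on oligomeric replicate 2.

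The fibrillar response less the oligomeric response, each against its own controls, was above 0 for all 6 tested members, as for 51.8% of all genes. In limma 0 of 6 members passed, and 0.0425% of all genes did. JUND came nearest, with 0.71 for fibrils and -0.09 for oligomers, a difference of 0.80 (SE 0.16, 95% interval 0.47 to 1.13, adjusted p = 0.0836). FOS differed by 2.26 (95% interval 0.68 to 3.84, adjusted p = 0.345), JUN by 1.16 (0.42 to 1.91, 0.309), ATF3 by 1.09 (0.33 to 1.86, 0.347) and JUNB by 1.36 (0.21 to 2.51, 0.471). These intervals are unadjusted. A difference between the preparations was therefore not shown for these members after adjustment over all genes, and the intervals do not show that they act alike.

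**Figure D3:**
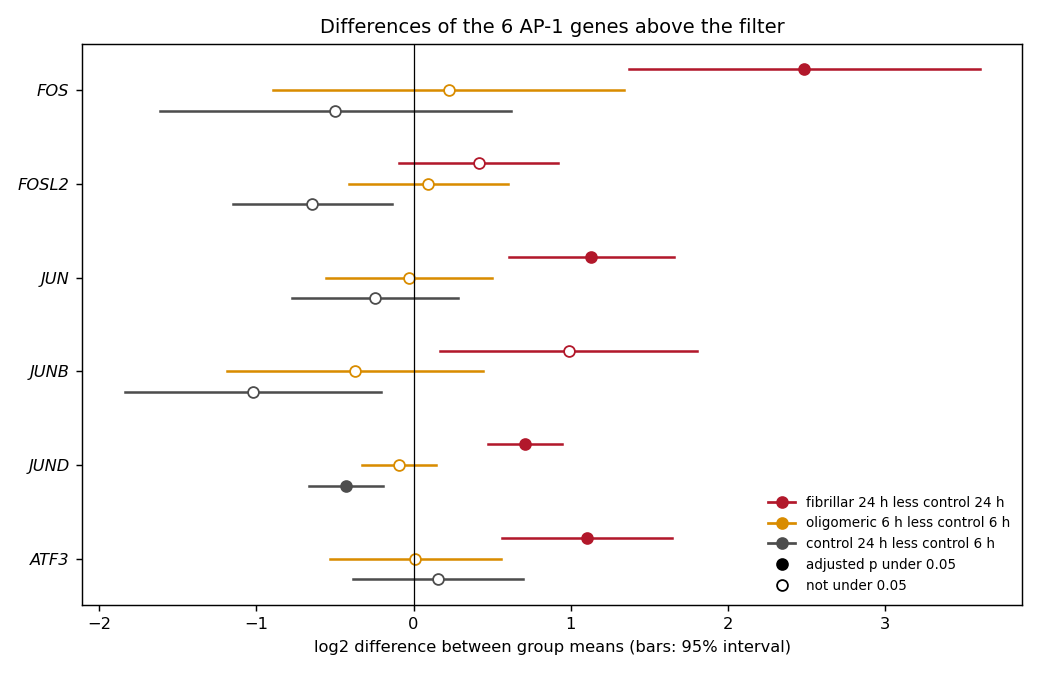
Log2 difference between group means (horizontal axis) for the 6 AP-1 genes above the filter, with 95% intervals as bars and filled points for an adjusted p under 0.05. The filled fibrillar points are FOS, JUN, JUND and ATF3, the oligomeric points are all open, and JUND is also filled for 24 h against 6 h controls.

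JUND also differed between the control groups by time. It was lower in the 24 h controls, at 9.23, 9.37 and 9.23, than in the 6 h controls, at 9.77, 9.63 and 9.71, and fell by 0.43 on the log2 scale (SE 0.11, limma adjusted p = 0.0192). This was 1 of 6 tested members, and 0 rose, where 7.92% of all genes fell and 3.76% rose. The call was lost without control 6 h replicate 1 or control 24 h replicate 1 or 3. JUNB had 4.95, 4.84 and 4.38 at 24 h, against 5.45, 6.00 and 5.77 at 6 h, a change of -1.02 (95% interval -1.84 to -0.21, adjusted p = 0.0997). FOSL2 had 5.61, 6.21 and 5.72 at 24 h, against 6.25, 6.93 and 6.28 at 6 h, a change of -0.64 (95% interval -1.15 to -0.14, adjusted p = 0.0954). Neither passed, although for JUNB, FOSL2 and JUND the 24 h controls all lay below the 6 h controls, as for 18.9% of all genes. FOS (-0.50), JUN (-0.24) and ATF3 (0.16) did not pass either, with adjusted p-values of 0.591, 0.578 and 0.741. With the 3′ less 5′ measure as a covariate the change of JUND was -0.08 (adjusted p = 0.759). Other measures moved with time as well. The 3′ less 5′ signal was 1.43 to 1.58 in the 24 h controls and 1.80 to 2.04 in the 6 h controls, the 18S ribosomal RNA signal 11.4 to 11.8 and 9.31 to 10.3, and the summed mesenchymal markers 9528 to 10696 and 7171 to 8529 in linear signal. The part of the 18S signal and of these markers was not tested. The 3′ less 5′ measure did not overlap between these control groups. The fit with it therefore cannot tell this measure from hours, for JUND here or for the lists below. The 24 h controls are also the reference of the fibrillar comparison, so these results share arrays with it.

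The order of the group means therefore differed between members. FOS, JUN and ATF3 were highest with fibrils, at means of 6.50, 8.44 and 7.46, with no overlap with the next group, while the other 3 groups overlapped their neighbours in the order. JUND was also highest with fibrils, but its 9.69 to 10.3 overlapped the 9.63 to 9.77 of the 6 h controls, and its 24 h controls were lowest and apart from the oligomeric arrays. For JUNB the 6 h controls and the fibrillar arrays had nearly the same mean, 5.74 and 5.71, and overlapped, with the 24 h controls lowest at 4.72. For FOSL2 the oligomeric mean was highest, 6.58, followed by 6.49 in the 6 h controls, 6.26 with fibrils and 5.85 in the 24 h controls, each overlapping the next. For FOSB and FOSL1 each group overlapped the next in the order, although the 24 h controls of FOSL1 all lay below its 6 h controls.

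Over the 12 arrays, which share the 4 groups, some members followed each other closely. FOS and JUN had a Pearson correlation of 0.96, JUN and ATF3 0.94, FOS and ATF3 0.89 and JUN and JUND 0.87. FOSL2 was least like the rest, with 0.23 to FOS and 0.11 to ATF3, and 0.74 to JUNB. Among the other tested genes, those most like FOS were TSC22D2 (0.95), TENT5A (0.94) and MAFF (0.91), and those most like JUN were TENT5A (0.98), SQLE (0.95) and TSC22D2 (0.94). Most like ATF3 were MSMO1, HMGCS1 and MAFF, each at 0.97, and most like JUND were KLF6 (0.98), EEA1 (0.96) and VAPA (0.93). JUNB was followed most closely by CCNT1 (0.95), EGR1 (0.93) and EGR3 (0.91), and FOSL2 by ANO3 (0.94), TNFAIP1 (0.92) and ADCY3 (0.91). These genes were chosen over arrays that include the fibrillar ones, so their fibrillar differences are given as a description only. They were 1.36 for HMGCS1, 1.03 for MSMO1, 1.02 for TENT5A, 0.93 for KLF6, 0.66 for MAFF and 0.63 for SQLE. EGR1 had 1.24, EGR3 1.22, ANO3 0.74, EEA1 0.45 and ADCY3 0.42. The smallest were 0.33 for TSC22D2, 0.25 for VAPA, 0.18 for CCNT1 and 0.12 for TNFAIP1.

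The rest of the pathway was read from 6 lists, drawn up with earlier results of these data known, so their counts are a description only. With the 3′ less 5′ covariate fewer genes were called over all genes too, by time and with fibrils. Lower list counts with it are therefore not shown to be particular to a list. Among bZIP proteins that pair with Fos, Jun or ATF3 or resemble them, 4 of 17 tested genes rose with fibrils and 0 fell, where 0.798% of all genes rose and 0.391% fell, and the list median was 0.23, against -0.00053 for all genes. MAFF, a small Maf protein without an activation domain, had 8.91, 8.31 and 8.58 with fibrils, against 7.998, 7.97 and 7.86 in the controls, and rose by 0.66 (SE 0.12, limma adjusted p = 0.0139). CREB5, a CREB-family factor, had 9.35, 8.64 and 9.50 with fibrils, against 8.17, 8.21 and 8.42, and rose by 0.89 (SE 0.17, adjusted p = 0.0220). CEBPB, the gene of C/EBPβ, rose by 0.62 (adjusted p = 0.0457), and DDIT3, the stress factor CHOP, by 0.95 (adjusted p = 0.0454). In all 4 genes the fibrillar arrays lay above all controls, as for 10.9% of all genes. The 4 were picked as called on these same arrays, so this adds no separate support. Of the genes with a lower mean, NFE2L1 (-0.06) and ATF5 (-0.14) had the smallest p and did not pass. By time CEBPB fell by 0.60 (limma adjusted p = 0.0131), the 1 of 17 tested genes called there, where 7.92% of all genes fell. The CEBPB mean of 8.49 with fibrils lay near the 8.46 of the 6 h controls, with overlapping arrays. With the 3′ less 5′ covariate 0 of the 17 were called by time. The rise of DDIT3 was known when the list was drawn up, and without it 3 of 16 rose. Without fibrillar replicate 1, 1 of the 17 was called, and with the 3′ less 5′ covariate 0 were.

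Of 19 factors that act on the FOS and JUN promoters, 2 rose and 0 fell with fibrils, where 0.798% of all genes rose, and the median was 0.09, against -0.00053. ELK3, an ETS factor that binds with SRF, had 10.93, 10.70 and 11.005 with fibrils, against 10.39, 10.42 and 10.35 in the controls, and rose by 0.49 (SE 0.09, limma adjusted p = 0.0124). MEF2A, which binds the JUN promoter, had 8.89, 8.61 and 8.97, against 8.09, 8.11 and 8.33, and rose by 0.64 (SE 0.11, adjusted p = 0.0124). In both called genes the fibrillar arrays lay above all controls, as for 10.9% of all genes, and fibrillar replicate 1 was not the highest in either. Without that array 2 genes of the list were called, and with the covariate 0 were. The coactivator genes CRTC2 (-0.38) and MRTFA (-0.36) had the lower means with the smallest p and did not pass.

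Among 27 tested genes from a list of MAP kinases, their upstream kinases, RPS6KA kinases and MAPK8IP scaffold proteins, limma called 0 with fibrils. Over all genes 0.798% rose and 0.391% fell, so a count of 0 is near that share. The list median was 0.01. MAPK3, or ERK1, had a change of 0.67 (adjusted p = 0.225), MAP3K1 0.18 (adjusted p = 0.28), MAP2K6 -0.79 (adjusted p = 0.0621) and MAP3K5, or ASK1, -0.42 (adjusted p = 0.385). By time in the controls, MAP2K6 (0.65) and RPS6KA2 (0.35) rose, 2 of the 27, where 3.76% of all genes did. MAPK7 (-0.73), RPS6KA3 (-0.70) and MAP2K1 (-0.46) fell, 3 of the 27, where 7.92% of all genes did. Of 17 factors of AP-1 protein and mRNA turnover, limma called 0 with fibrils, again near the share over all genes, with a median of 0.03. ZFP36L2, an mRNA decay factor, had 0.24 and CUL4A, a ubiquitin ligase scaffold, 0.25, while DDB1 had -0.41 and DET1 -0.25. In the 24 h controls 4 of these 17 fell, where 7.92% of all genes did, namely ELAVL1 (-0.40), TNPO3 (-0.42), HNRNPD (-0.26) and ZFP36L2 (-0.29). With the 3′ less 5′ covariate 1 of the 17 was called lower by time and the list median was 0.07, against -0.06 without it. Of the 27 genes of the kinase list 3 were called lower by time and 0 higher with that covariate.

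Among 24 tested target genes of AP-1, 3 rose with fibrils and 0 fell, where 0.798% of all genes rose. Of the 24, 22 had the higher mean, as did 49.9% of all genes, and the median was 0.24. ITGA2, an integrin subunit, had 10.1, 9.15 and 9.76 with fibrils, against 8.35, 8.56 and 8.28 in the controls, and rose by 1.27 (limma adjusted p = 0.00163). It was also the list gene that passed for the fibrillar less the oligomeric response, with 1.27 and -0.13, a difference of 1.3996 (adjusted p = 0.0367). The ITGA2 mean was 9.66 with fibrils, 9.79 in the 6 h controls and 9.66 with oligomers. Only the 24 h controls, at 8.40, were lower. VEGFA rose by 0.41 (adjusted p = 0.0358). PDGFA, a growth factor gene, had 4.92, 4.22 and 4.72 with fibrils, against 3.05, 2.41 and 3.29 in the controls, a change of 1.71 (adjusted p = 0.0442). All 3 of its controls lay below the filter level of 3.78, so it entered the test through the other groups and the size of its change is uncertain. The PDGFA mean of 4.62 with fibrils lay near the 4.49 of the 6 h controls, with overlapping arrays. All 3 called genes were known to have risen when the list was drawn up. Without them 0 of 21 rose, 19 of 21 had the higher mean and the median was 0.17. The matrix gene FN1 (-0.12) and the intermediate filament gene VIM (-0.02) were the 2 with lower means. Without fibrillar replicate 1 the list had 2 calls and a median of 0.12, and with the covariate 1 call and 0.17.

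The same list was lower in the 24 h controls than in the 6 h controls, with 9 of 24 genes that fell, 0 that rose and a median of -0.40, against 7.92% of all genes that fell and a median of -0.02. CCL2, a chemokine, had 6.61, 7.03 and 5.60 at 24 h, against 8.84, 9.46 and 8.37 at 6 h, a change of -2.48 (SE 0.45, limma adjusted p = 0.00238). ITGA2 (-1.40), PDGFA (-1.57), the nuclear lamin gene LMNA (-1.08), the protease inhibitor gene SERPINE2 (-0.95), CD44 (-0.97), TIMP1 (-0.64), CCND1 (-0.39) and GJA1 (-0.29) fell too. With the 3′ less 5′ covariate 4 of the 24 were called lower, and fewer of all genes were called too. The list median was then -0.25, against -0.02 for all genes. The 18S and mesenchymal signals also differed between these controls, as given above. With fibrils CCL2 read 9.05, 7.65 and 7.09, all above the 24 h controls, with a change of 1.51 that did not pass (adjusted p = 0.132).

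Of 20 neuropeptide and neuronal target genes only 9 were above the filter. With fibrils 0.798% of all genes rose and 0.391% fell, so a count of 0 among 9 is near that share. Limma called 0 of the 9 with fibrils, and their median was 0.19. GAP43 (0.49, adjusted p = 0.0913) and the granin gene SCG2 (0.42, adjusted p = 0.0969) were nearest to the threshold, while CHGA (-0.24) and NEFL (-0.01) had the lower means. In the 24 h controls against the 6 h controls 4 of the 9 fell, the galanin gene GAL (-0.81), GAP43 (-0.59), SCG2 (-0.56) and NPY (-0.56), where 7.92% of all genes fell. With the 3′ less 5′ covariate 2 of the 9 were called lower, and the list median was -0.27, against -0.50 without it. In the oligomer comparison limma called 0 genes of any of the 6 lists, and 0% of all genes. Some genes, such as CREB1 and ATF2, stand in more than 1 list.

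**Figure D4:**
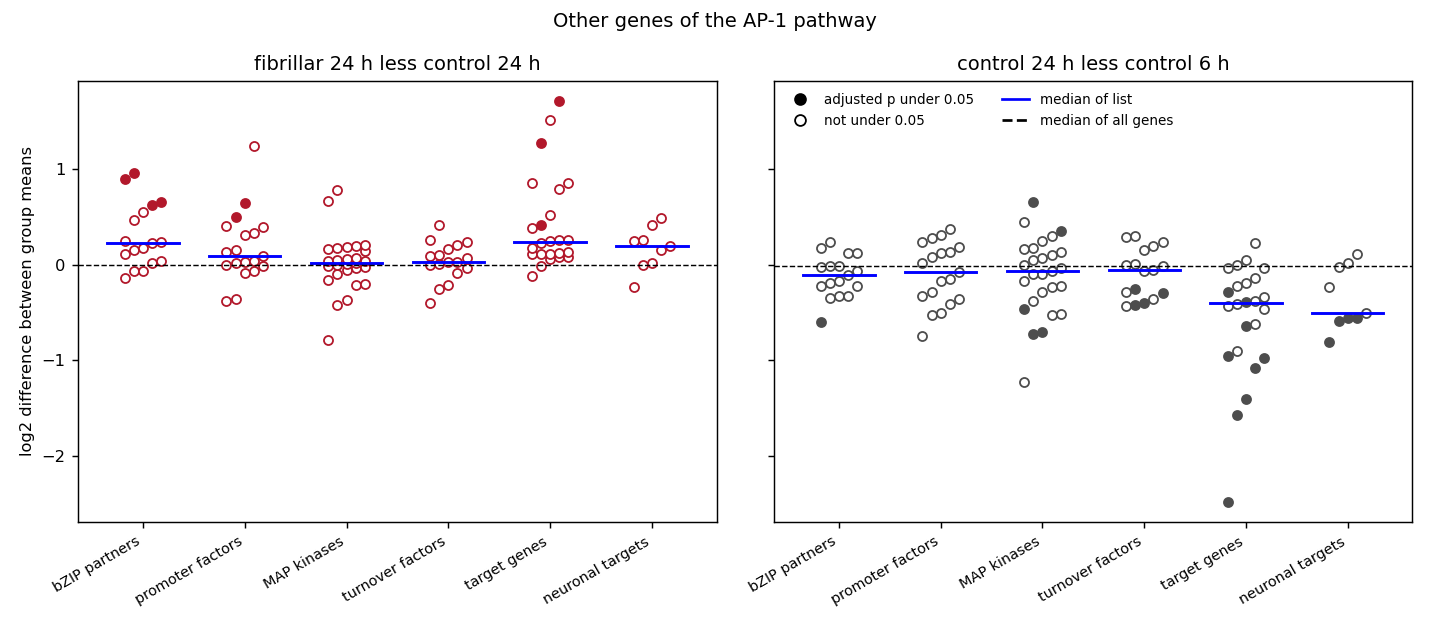
Log2 difference between group means (vertical axis) of each tested gene in 6 lists of the AP-1 pathway, fibrillar against control at 24 h on the left and 24 h against 6 h controls on the right. Filled points have an adjusted p under 0.05, blue lines are list medians and the dashed line is the median of all genes; target genes have medians of 0.24 and -0.40.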

How the data were processed

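The authors deposited log2 signals per probe set, and the submitters' processing notes name MAS5 without a version. On every array the linear signals had a trimmed mean of 100.002, so scaling had been done and none was added. Of 54675 probe sets, 62 were controls, 41091 carried 1 gene symbol, 1801 several and 11721 none. A group-means model of all 12 arrays was fitted in R 4.3.3 by limma 3.58.1 with an intensity trend in the prior variance. Benjamini-Hochberg adjusted p-values under 0.05, over all 11774 genes, were called, and the method was tested on simulated data. The simulation gave each gene the same spread in all groups. It therefore does not cover the wider fibrillar spread seen for FOS and ATF3. Named were the 8 members, the 3 genes with the highest Pearson correlation to each tested member, and for each list up to 2 genes in each direction by p with fibrils and every gene called. The members and lists were chosen with earlier results of these data known. Alternatives concerned normalization, filter, probe sets, variance model, weights, covariates and single arrays. Fold changes of low signals depend on the scale near 0. Genome positions of the probe sets were not used here.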

Additional observations from a re-analysis of the deposited data

Results flagged for a closer look

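JUND lay on opposite sides of its controls in the 2 treatments, although the oligomeric difference itself did not pass. All 3 oligomeric arrays lay below the mean of the 6 h controls, by -0.03, -0.11 and -0.14 on the log2 scale, and all 3 fibrillar arrays lay above the mean of the 24 h controls, by 1.02, 0.41 and 0.69. The difference of the responses was 0.80, and its test did not pass (limma adjusted p = 0.0836). The oligomeric and control arrays overlapped, at 9.57 to 9.67 and 9.63 to 9.77, and with the 3′ less 5′ covariate the oligomeric difference was 0.040 and the difference of the responses 0.48 (adjusted p = 0.382). With single arrays left out the adjusted p ran from 0.00279 to 0.256, and JUND passed in 2 of 12 such fits.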

How the results depend on the processing

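With fibrils, 4 members and 140 genes were called. The members called were 1 without a filter, after averaging probe sets, with a robust prior variance, with the compared groups only and with the 3′ less 5′ covariate, 2 with every probe set and 0 with a constant prior variance, and 0 to 4 with single arrays left out. The genes called were 79 without a filter, 62 after averaging probe sets, 7 with a constant prior variance, 268 with array weights, 35 with the compared groups only, 39 with the covariate and 14 to 185 with single arrays left out. For the difference of the responses, 5 genes were called, against 3 after quantile normalization, with the mean of probe sets, with every probe set and with the replicate block, 13 after median centring, 0 with a constant prior variance, 27 with array weights, 1 with the covariate, 8 with log2 of the signal plus 16 and 0 to 64 with single arrays left out. There 1 member, JUND, was called after median centring and with array weights, and 0 to 3 members with single arrays left out. By time 1375 genes were called, against 2123 with every probe set, 467 with the covariate and 719 to 1106 with single arrays left out. The member count by time, 1, was 3 after median centring, 0 with a constant prior variance, 2 with the compared groups only, 0 with the covariate and 0 to 1 with single arrays left out.

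Median centring moved the array medians by 0.13 by time and by -0.14 for the difference of the responses. Directions turned only where no call was made. With oligomers these were ATF3 after median centring (-0.053) and with the mean of probe sets (-0.15), FOSL2 with the mean of probe sets (-0.15), and JUN (0.28) and JUND (0.040) with the covariate. With single arrays left out the oligomer changes ran from -0.0591 to 0.0695 for ATF3, -0.11 to 0.0142 for JUN, -0.0252 to 0.32 for FOSL2 and -0.0547 to 0.47 for FOS. By time FOS (0.82) and JUN (0.56) turned with the covariate. The causes were not tested. The oligomer comparison had 0 calls in every setting. The filter at the 75th percentile left out FOS, FOSL2 and JUNB. The replicate numbers were not shown to pair the arrays, since same-numbered deviations correlated at -0.02 to 0.09. Each fibrillar and 24 h control array was most like its own number, and 1 of 3 oligomeric arrays was. The replicate block left the fibrillar member count at 4. The list counts without fibrillar replicate 1 and with the covariate, by time too, were chosen after seeing the data.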
